A study of Mus musculus with 48 samples.

Results

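The remnant kidney of C57BL/6 mice at day 28 after subtotal nephrectomy is described here against the kidney of sham-operated C57BL/6 mice of the same day, with 8 of the 48 arrays of the series. These 8 were taken by their titles, 4 labelled as nephrectomized (written Nx) and 4 as sham operated, all C57BL/6, all 28 days after surgery and all 9 weeks old at surgery. RNA came from frozen whole kidney, 1 Affymetrix mouse array per animal, and the labels name the Nx animals as mice 3, 4, 5 and 9 and the sham animals as mice 1, 3, 5 and 6. The design text of the series calls the C57BL/6 strain not predisposed to renal lesions and FVB, the other strain, predisposed, and the series samples both strains at days 2, 28 and 53. How much kidney was removed is not given in the labels, so the model is known here only as a subtotal nephrectomy. The comparison addresses what the remnant of the strain not prone to lesions expresses differently 28 days after surgery.

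Subtotal nephrectomy removes most of the nephrons, and those left enlarge and filter more each. Such a remnant is a common model of chronic kidney disease, in which macrophages gather, fibroblasts deposit matrix and tubule cells lose part of their transport machinery. The nephron runs from the glomerulus through proximal tubule, loop of Henle and distal convoluted tubule to the collecting duct, and each segment has transporters by which its RNA can be told.

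Transcripts of another organ and 1 animal that stood apart bear on every result below. Genes of pancreatic digestive enzymes had a mean level of 11.89, 11.70 and 11.97 on the log2 scale on the arrays of Nx mice 4, 5 and 9 and of 6.74 in sham mouse 1. On the arrays of Nx mouse 3 and of sham mice 3, 5 and 6 that mean was 2.98, 2.99, 3.01 and 2.99, close to the lowest deposited value of 2.198. Over all genes, the pancreas genes among them, Nx mouse 3 lay apart from the other Nx arrays. It was at 46.6 on the second principal component (25.4% of the variance) against -28.2 to -22.2 for the other 3. On that component sham mouse 1 lay at -6 and sham mice 3, 5 and 6 at 12.1, 9.1 and 13.4. The correlation of Nx mouse 3 with the other Nx arrays was 0.971 to 0.974, while those 3 correlated with one another up to 0.996. How far it lay apart with the pancreas genes left out was not tested. Kidney identity was clear on all 8: the loop of Henle protein Umod lay between 15.04 and 15.33, the proximal phosphate transporter Slc34a1 between 12.27 and 12.99 and the collecting duct water channel Aqp2 between 9.14 and 10.49. The 3′ minus 5′ difference of Gapdh probe sets, a measure of RNA integrity, was 0.224 ± 0.059 in Nx and 0.169 ± 0.067 in sham kidneys (SD, n = 4 each; exact permutation test, two-sided, p = 0.257, Benjamini-Hochberg adjusted 0.429). That of Actb was 2.144 ± 0.181 against 2.234 ± 0.118 (exact permutation p = 0.429, adjusted 0.429), and 4 against 4 animals allow no p below 0.0286. Each comparison below was therefore run also without Nx mouse 3, without every array of the series with a pancreas mean above 5, and with that mean as a covariate. Of these 8 arrays the cutoff removes 4, which leaves Nx mouse 3 alone against 3 sham animals, its spread taken from the other groups. The fit without Nx mouse 3 has the opposite limit. It keeps only Nx mice 4, 5 and 9, all with high pancreas means, against sham animals of which only mouse 1 has a raised mean. In that fit, used throughout below, surgery and pancreas transcripts can hardly be told apart. Pancreas transcripts were not limited to these arrays. Over the pancreas genes the median Nx effect was 6.51 here. The median difference of that effect was 0.08 for day 28 minus day 2 and 0.49 for C57BL/6 minus FVB. From day 28 to day 53 the median change was -2.52.

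Of 13174 genes measured, 2501 differed between Nx and sham kidneys (19.0%, limma with Benjamini-Hochberg adjustment, adjusted p under 0.05), 1297 of them higher (9.85%) and 1204 lower (9.14%) in the remnant. The rises were the larger: 549 genes rose by more than 1 on the log2 scale and 175 by more than 2, against 100 and 17 that fell as far. Values of the 4 Nx and the 4 sham animals did not overlap for 2577 genes (19.6%), of which 1851 (14.1% of all genes) also passed the test. Without Nx mouse 3 the count was 1537 (11.7%), with the pancreas covariate 2471 (18.8%), with Nx mouse 3 as the only Nx animal 3488 (26.5%), and with a spread estimated from these 8 arrays alone 839 (6.37%). With that last spread the count was lower by more than 1.5 times for 37 of the 47 gene lists described below. It was then 16 of 44 cell cycle genes, 14 of 29 injured tubule genes, 10 higher and 1 lower of 25 matricellular genes and 7 and 2 of 26 matrix proteases. It was 6 of 25 for elastic fibres, 6 of 28 for fibroblasts, 8 of 31 for chemokines, 5 of 16 for alternatively activated macrophages, 2 of 12 for MHC class II and 4 of 22 for the acute phase. Of 31 phagocytic macrophage genes 19 and of 23 collagen chains 14 still rose. Over all 13174 genes 411 rose and 428 fell with that spread, and 809 rose and 728 fell without Nx mouse 3. In the main fit the median difference over all genes was -0.02. Of the genes that passed 51.9% were higher, and when every array was shifted to 1 common median 4359 passed, 26.3% of them higher, with the median over all genes at -0.07. In whole-kidney RNA, fewer cells of a type and less RNA of a gene per cell cannot be told apart, nor can more cells and more RNA per cell.

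Single-animal values are log2 levels, given in the order Nx mice 3, 4, 5 and 9 and then sham mice 1, 3, 5 and 6. Differences are Nx minus sham on the log2 scale with the standard error (SE) of the fit and limma's adjusted p. Most genes named were taken by a rule on size, overlap and p-value. The 20 highest and 20 lowest changes were taken only among genes without overlap, so for these the lack of overlap was fixed by the choice. Gpnmb, Mmp12, Cd68, Ccl8, Retnla, Ltbp2, Cilp, Timp1, Col1a1, Dnase1 and Hdc are among them. Chosen after their values were seen were Acsm3, Aqp2, Aurka, Axl, Ccl2, Ccl25, Ccnd1, Cd59a, Cks1b, Cxcl1, Cxcl2, Ecm1, Egf, Fcgr1, Fgf1, Foxi1, Gatm, Havcr1, Igf2, Itgb6, Plat, Plau, Slc12a3, Slc22a6, Slc34a1, Slc5a1, Umod, Vdr and Wnt4. Probe sets of close relatives, as in the Cyp2d, Ugt2b, Slc22a, Serpina1, Oas1 and MHC class II families, may bind RNA of more than 1 gene.

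Several of the largest rises were in genes of macrophages. Gpnmb, a glycoprotein of lipid-laden phagocytes, stood at 11.89, 9.18, 7.65 and 9.99 in Nx and 3.30, 2.98, 2.95 and 2.98 in sham kidneys. Mmp12, the elastase of macrophages, stood at 12.95, 9.51, 8.91 and 10.35 in Nx and 4.42, 4.08, 4.08 and 3.72 in sham kidneys. Cd68, a lysosomal protein of these cells, stood at 9.88, 7.27, 6.70 and 7.79 in Nx and 3.89, 2.99, 3.53 and 3.03 in sham kidneys. In all 3 genes every Nx animal lay well above every sham animal, and Nx mouse 3 lay highest. The difference was 6.62, SE 0.55, adjusted p = 1.58e-10 for Gpnmb. It was 6.35, SE 0.58, adjusted p = 7.79e-10 for Mmp12 and 4.55, SE 0.49, adjusted p = 1.97e-08 for Cd68. Of 31 measured genes of phagocytic macrophages 26 rose and 0 fell, with a median difference of 2.26 against -0.02 over all genes. Among them were the lysozymes Lyz2 (3.78, SE 0.42, adjusted p = 3.04e-08) and Lyz1 (3.38, SE 0.37, adjusted p = 2.07e-08), whose sequences are close enough that their probe sets may share RNA. Without Nx mouse 3 the count was 23 of 31, with a median of 1.79.

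A group of genes that marks resident and alternatively activated macrophages rose as well, 9 of 16 measured and 0 lower (median 2.18). Retnla, a secreted protein of alternatively activated macrophages, was uneven at 12.19, 6.42, 6.02 and 6.83 in Nx and 2.60, 2.70, 2.60 and 3.31 in sham kidneys. Nx mouse 3 lay above 12 there and the other Nx animals between 6.02 and 6.83, still apart from the sham animals. Its difference was 5.06, SE 0.94, adjusted p = 0.000127, and 3.62, adjusted p = 0.00232 without that mouse. With the spread of the 8 arrays alone it had adjusted p = 0.0691. The mannose receptor Mrc1 (3.14, SE 0.36, adjusted p = 3.86e-08) and the platelet factor Pf4 (3.00, SE 0.45, adjusted p = 4.73e-06) rose too. So did the lectin Mgl2 (2.31, SE 0.39, adjusted p = 3.36e-05) and the clotting factor subunit F13a1 (4.29, SE 0.78, adjusted p = 9.19e-05), which these macrophages make. The count was again 9 of 16 without Nx mouse 3, with the median at 1.29.

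Chemokines that draw monocytes rose, and 3 that draw neutrophils did not pass the test. The monocyte and eosinophil attractant Ccl8 stood at 11.76, 7.73, 6.72 and 8.72 in Nx and 2.57, 2.67, 2.61 and 3.45 in sham kidneys, with no overlap. Its difference was 5.91, SE 0.68, adjusted p = 4.63e-08. Ccl9 (4.14, SE 0.67, adjusted p = 2e-05), Ccl6 (3.58, SE 0.59, adjusted p = 2.36e-05), Ccl12 (3.55, SE 0.56, adjusted p = 1.11e-05) and the T cell attractant Ccl5 (3.29, SE 0.48, adjusted p = 4.19e-06) rose too. Ccl2, the main ligand of the monocyte receptor Ccr2, rose by 1.51, SE 0.49, adjusted p = 0.0264. The neutrophil attractants Cxcl1 (0.60, SE 0.46, adjusted p = 0.405), Cxcl2 (1.11, SE 0.49, adjusted p = 0.106) and Cxcl5 (0.36, SE 0.30, adjusted p = 0.45) gave smaller values. Of 31 measured chemokine genes and receptors 14 rose and 1 (Ccl25) fell, a median of 0.93, and without Nx mouse 3 the numbers were 9 and 0. Ccl2 no longer passed without that mouse or without sham mouse 5 (adjusted p = 0.155 and 0.102), and Ccl25 did not without Nx mouse 3 or 4 or sham mouse 1 or 3 (0.0622 to 0.135).

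Of 9 neutrophil genes 1 rose, a share near the 9.85% of all genes, and that was Lcn2, which injured tubule cells also make. The granule protein S100a9 (-0.60, SE 0.99, adjusted p = 0.76), the gelatinase Mmp9 (0.23, SE 0.38, adjusted p = 0.767) and the cytokine Il1b (-0.24, SE 0.40, adjusted p = 0.771) did not pass. Of 14 T and NK cell genes 3 rose, the interleukin 7 receptor Il7r, the T cell receptor subunit Cd3d and the granule protein Nkg7. Cd3d stood at 6.60, 2.83, 3.05 and 4.37 in Nx and 2.77, 2.59, 2.83 and 2.77 in sham kidneys, so that Nx mice 4 and 5 lay near the sham animals and Nx mouse 3 far above them. Its difference was 1.47, SE 0.45, adjusted p = 0.0177 with all animals and 0.68, adjusted p = 0.241 without mouse 3, and only Il7r (1.83, adjusted p = 0.0146) still passed then. Of 9 B and plasma cell genes 1 also rose, the antibody joining chain Jchain (2.34, SE 0.65, adjusted p = 0.00852), with overlapping values and adjusted p = 0.0508 without Nx mouse 4 and 0.0542 without sham mouse 5. Nkg7 did not pass without Nx mouse 3 or any 1 of the sham animals (adjusted p = 0.0773 to 0.628). Without Nx mouse 5 or 9, 6 of 14 T and NK cell genes passed, and 5 without Nx mouse 4.

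Antigen presentation and complement were higher. Of 12 genes of MHC class II and peptide loading 7 rose and 0 fell (median 0.96), among them H2-Aa at 12.91, 12.12, 12.14 and 11.83 in Nx and 11.24, 10.68, 10.80 and 10.55 in sham kidneys. Each Nx animal lay above each sham animal in H2-Aa, and the difference was 1.43, SE 0.23, adjusted p = 1.63e-05. Without Nx mouse 3, 3 of the 12 passed, H2-Aa, Cd74 and H2-Ab1. Of 17 complement genes 10 rose and 1 fell (Cd59a), a median of 0.74. C1qa (2.31, SE 0.29, adjusted p = 2.78e-07), C1qb (2.61, SE 0.32, adjusted p = 1.57e-07) and C1qc (2.96, SE 0.41, adjusted p = 1.26e-06), the subunits of the first component, rose. The receptor C3ar1 rose by 3.93, SE 0.49, adjusted p = 2.39e-07, and Serping1, the inhibitor of the first component, by 1.23, SE 0.19, adjusted p = 1.16e-05.

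Signalling genes of inflammation gave smaller differences. Of 32 genes of inflammatory cytokines and NF-kB 17 rose and 0 fell (median 0.73, 11 of 32 without Nx mouse 3, and 3 of 32 with the spread of the 8 arrays alone). Vcam1, an adhesion molecule of endothelium and of injured proximal tubule, stood at 11.41, 10.49, 10.12 and 10.27 in Nx and 8.70, 8.23, 8.07 and 8.50 in sham kidneys, with all 4 Nx animals above 10 and all 4 sham animals below 9. It rose by 2.20, SE 0.22, adjusted p = 4.63e-09. The signalling brake Socs3 rose by 1.95, SE 0.27, adjusted p = 1.77e-06, the adhesion molecule Icam1 by 1.08, SE 0.20, adjusted p = 0.000149 and the macrophage growth factor Csf1 by 1.29, SE 0.25, adjusted p = 0.000229. Of 25 interferon response genes 7 rose and 0 fell (median 0.53), and without Nx mouse 3 the count was 3. Oas1a (1.35, SE 0.30, adjusted p = 0.00115), Oasl2 (1.73, SE 0.40, adjusted p = 0.00149) and Ifitm3 (0.72, SE 0.18, adjusted p = 0.00298) were the 3 that passed both times.

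**Figure D1:**
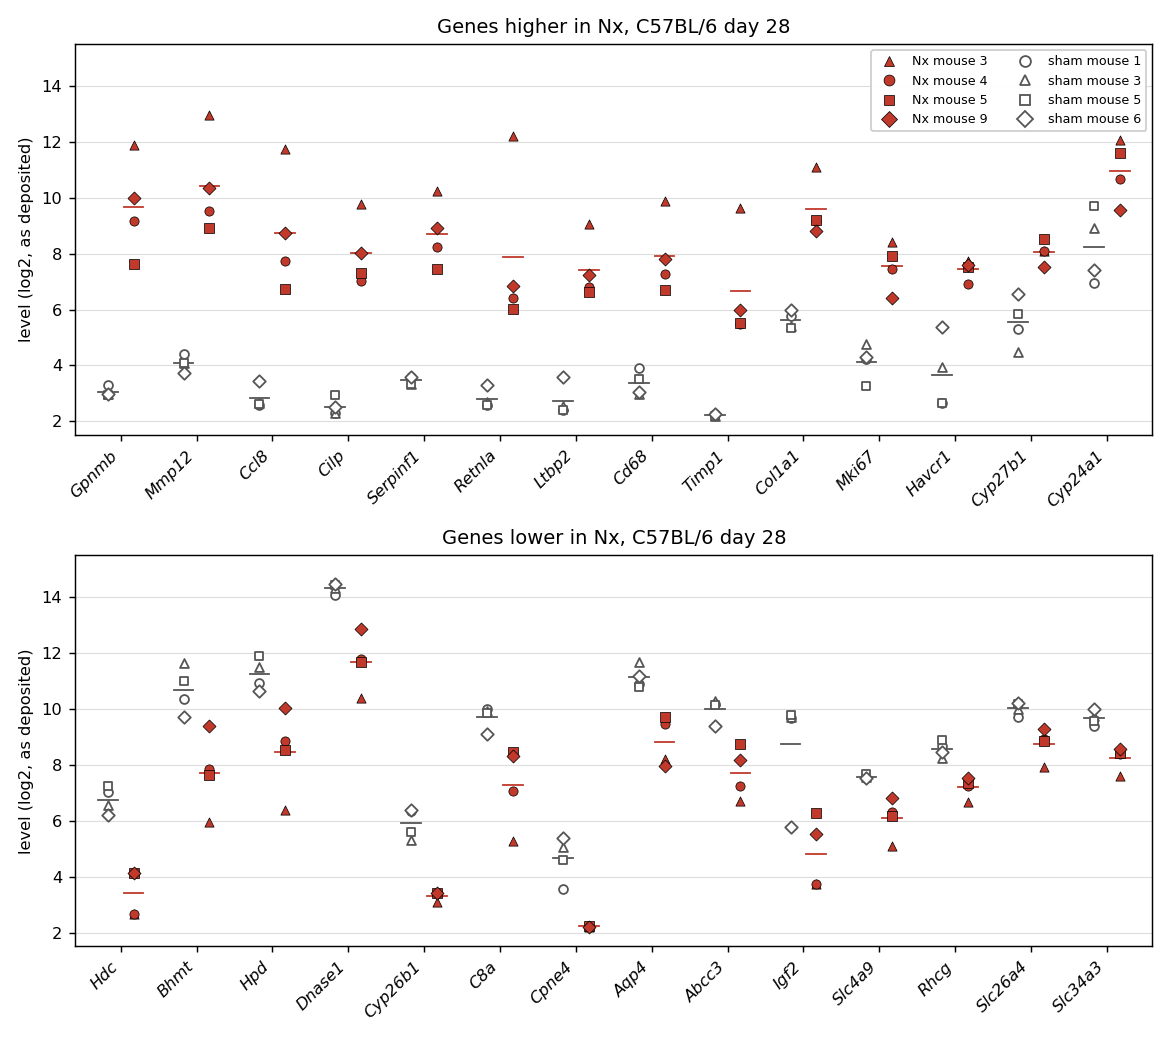
Log2 levels of 14 genes that were higher and 14 that were lower in Nx kidneys at day 28, one point per animal (Nx filled, sham open, short lines the group means). Nx mouse 3 (filled triangle) lies highest in most of the upper genes, with Retnla at 12.19 against 6.02 to 6.83 in the other Nx animals, and lowest in most of the lower ones; Igf2 and Cyp24a1 are the genes shown whose groups overlap.

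Matrix genes rose broadly. Of 23 collagen chains 19 rose and 1 fell, a median of 1.25, and 16 and 1 without Nx mouse 3. Col1a1, a chain of the main fibrillar collagen, stood at 11.12, 9.18, 9.20 and 8.82 in Nx and 5.76, 5.40, 5.35 and 5.98 in sham kidneys. Col3a1 of the reticular fibres stood at 14.60, 13.25, 13.23 and 13.25 in Nx and 10.58, 10.48, 9.78 and 10.95 in sham kidneys. Neither gene overlapped between the groups, and Nx mice 4, 5 and 9 lay within 0.4 of one another in both. The differences were 3.96, SE 0.42, adjusted p = 1.7e-08 for Col1a1 and 3.13, SE 0.33, adjusted p = 1.14e-08 for Col3a1. They were 2.50, SE 0.25, adjusted p = 4e-09 for Col1a2 and 2.87, SE 0.37, adjusted p = 3.24e-07 for Col12a1. The basement membrane chain Col4a1 rose by 1.17, SE 0.15, adjusted p = 5.89e-07. The 1 chain that fell, Col4a4 (-0.35, SE 0.08, adjusted p = 0.000833), belongs to the network of the mature glomerular basement membrane.

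Elastic fibre and crosslinking genes rose in 14 of 25 and fell in 0 (median 0.87, and 10 of 25 without Nx mouse 3). Ltbp2, a binding protein of elastic microfibrils, stood at 9.05, 6.80, 6.63 and 7.22 in Nx and 2.40, 2.53, 2.40 and 3.59 in sham kidneys. The difference was 4.70, SE 0.43, adjusted p = 7.79e-10, with no overlap. Mfap5, also of microfibrils (4.06, SE 0.45, adjusted p = 3.19e-08), the fibulin Fbln2 (2.78, SE 0.44, adjusted p = 1.19e-05) and the crosslinking enzymes Lox (2.72, SE 0.44, adjusted p = 1.56e-05) and Loxl1 (1.48, SE 0.22, adjusted p = 3.33e-06) rose with it. Of 25 matricellular proteins and proteoglycans 17 rose and 1 fell (Ecm1), a median of 0.90, and 11 and 0 without Nx mouse 3. Ecm1 also missed the threshold without Nx mouse 5, sham mouse 1 or sham mouse 6 (adjusted p = 0.051 to 0.0746). Cilp, a matrix protein known from cartilage and from fibroblasts of scarred tissue, stood at 9.78, 7.02, 7.32 and 8.03 in Nx and 2.31, 2.31, 2.93 and 2.52 in sham kidneys. The sham animals lay near the bottom of the scale and the Nx animals at 7 or more, a difference of 5.52, SE 0.65, adjusted p = 7.03e-08. The collagen-binding proteoglycans Lum (4.31, SE 0.44, adjusted p = 6.95e-09) and Fmod (3.18, SE 0.37, adjusted p = 5.66e-08), Sparc (1.71, SE 0.20, adjusted p = 8.11e-08) and Thbs2 (2.70, SE 0.34, adjusted p = 2.62e-07) rose as well.

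Enzymes that cut matrix moved in both directions. Of 26 matrix proteases and inhibitors 13 rose and 2 fell, and without Nx mouse 3 the counts were 8 and 2. The gelatinase Mmp2 (3.72, SE 0.33, adjusted p = 7.79e-10), Mmp3 (3.72, SE 0.41, adjusted p = 2.9e-08) and Mmp23 (1.88, SE 0.22, adjusted p = 6.92e-08) rose. Timp1, an inhibitor of these enzymes, stood at 9.64, 5.47, 5.52 and 5.98 in Nx and 2.26, 2.20, 2.20 and 2.26 in sham kidneys, with all sham animals under the filter value of 2.277, and was at least 20.7-fold higher in Nx (adjusted p = 2.26e-07), or 10.4-fold without Nx mouse 3. The 2 that fell were the plasminogen activators. Plau of the urokinase type stood at 10.61, 10.38, 11.07 and 10.88 in Nx and 11.68, 11.84, 11.29 and 11.70 in sham kidneys. Plat of the tissue type stood at 10.71, 10.79, 10.49 and 10.62 in Nx and 11.41, 11.59, 11.04 and 11.15 in sham kidneys. Neither overlapped between the groups, with differences of -0.89, SE 0.16, adjusted p = 0.000105 and -0.64, SE 0.15, adjusted p = 0.0014.

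Of 28 genes of fibroblasts, myofibroblasts and pericytes 16 rose and 0 fell (median 0.70), and without Nx mouse 3, 12 rose and 1 fell. Acta2, the smooth muscle actin of myofibroblasts, stood at 12.21, 11.48, 11.65 and 11.53 in Nx and 10.73, 10.95, 10.66 and 10.69 in sham kidneys, apart in every animal but by less than the collagens (0.96, SE 0.17, adjusted p = 7.34e-05). The intermediate filament Vim (1.90, SE 0.24, adjusted p = 3.16e-07), the calcification inhibitor Mgp (1.53, SE 0.17, adjusted p = 2.48e-08), the matrix protein Dpt (3.42, SE 0.53, adjusted p = 9.75e-06) and the transcription factor Runx1 (3.24, SE 0.35, adjusted p = 1.7e-08) rose further. The secreted proteins Serpinf1 (5.25, SE 0.65, adjusted p = 2.12e-07) and Cpxm2 (4.32, SE 0.50, adjusted p = 5.66e-08) rose too. Where a gene has several probe sets, the one of highest mean stands for it here. With their mean in its place, 25 of the 179 named genes that passed moved by more than 1.5 times and 1, Vegfa, did not pass (adjusted p = 0.0589). The rises were then 3.22 for Serpinf1, 2.81 for Cpxm2, 2.21 for Havcr1, 1.83 for Col12a1, 1.81 for Lox, 1.53 for Lyve1, 1.42 for Upk1b and 0.82 for Runx1. They were 1.32 for Top2a, 0.62 for Kif22, 1.27 for Socs3, 1.18 for Ccr2, 1.07 for Anxa1, 1.02 for Wnt4, 0.65 for Fcgr1, 0.63 for Egln3 and 0.48 for Csf1. Igf2 was then at -2.03, Hdc at -2.21, Podxl at -0.80, Fabp3 and Esrrb at -0.62, Ace at -0.51, Plat at -0.43 and Flt1 at -0.36.

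Markers of injured tubule cells rose, 22 of 29 measured genes, with 1 lower (median 0.80, and 17 and 1 without Nx mouse 3). Havcr1, the proximal injury receptor known as kidney injury molecule, stood at 7.72, 6.93, 7.51 and 7.60 in Nx and 2.66, 3.96, 2.65 and 5.37 in sham kidneys. Here Nx mouse 3 was not apart from the other Nx animals, which spanned 6.93 to 7.72, and the difference was 3.78, SE 0.56, adjusted p = 4.12e-06. Lcn2, the iron carrier secreted by injured distal nephron, stood at 10.21, 9.07, 9.13 and 7.75 in Nx and 5.79, 5.25, 4.17 and 4.45 in sham kidneys (4.13, SE 0.44, adjusted p = 1.7e-08). The chaperone Clu was even between animals, at 14.21, 14.23, 14.06 and 14.21 in Nx and 13.26, 13.38, 13.45 and 13.62 in sham kidneys, and rose by 0.75, SE 0.10, adjusted p = 3.36e-07. Anxa1 (2.12, SE 0.26, adjusted p = 2.26e-07) and the hyaluronan receptor Cd44 (3.51, SE 0.46, adjusted p = 5e-07) rose, both also known from white cells. The 1 that fell was Itgb6, a subunit of the epithelial integrin that activates transforming growth factor beta, at 6.80, 7.27, 7.35 and 7.97 in Nx and 9.34, 9.05, 8.71 and 8.24 in sham kidneys (-1.49, SE 0.30, adjusted p = 0.000346).

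Genes of dividing cells rose. Of 44 measured cell cycle genes 28 rose and 0 fell, a median of 0.84, and 21 of 44 rose without Nx mouse 3 (median 0.59). Mki67, a nuclear protein of cycling cells, stood at 8.42, 7.46, 7.90 and 6.43 in Nx and 4.22, 4.78, 3.26 and 4.30 in sham kidneys. The mitotic kinase Cdk1 stood at 7.40, 6.61, 6.57 and 6.07 in Nx and 3.63, 3.70, 3.47 and 4.66 in sham kidneys. Each Nx animal lay above each sham animal in both genes, with differences of 3.41, SE 0.43, adjusted p = 2.34e-07 and 2.80, SE 0.33, adjusted p = 6.31e-08. The chromosome motor Kif22 (1.21, SE 0.17, adjusted p = 1.26e-06), Birc5 of the chromosomal passenger complex (2.82, SE 0.41, adjusted p = 3.44e-06) and topoisomerase Top2a (2.53, SE 0.38, adjusted p = 4.86e-06) rose too. Within the Nx group Mki67, Cdk1, Birc5 and Top2a were lowest in Nx mouse 9.

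Genes of late cell cycle share promoter elements, the CCAAT box bound by NF-Y and the cell cycle homology region, which holds the repressive complex of resting cells. Of the 28 genes that rose, 23 had an entry in the RefSeq promoter table (GRCm38.p6). The 250 bases before the first listed start held CCAAT on either strand in 21 of these 23 (91.3%), against 35.9% of the 10626 tested genes with an entry. The core letters TTTGAA of the homology region, on either strand, were there in 9 of 23 (39.1%, against 10.8%), and both motifs in 9 (39.1%, against 4.06%). The shares were much the same over the 35 measured cell cycle genes with an entry, risen or not: 30 held CCAAT (85.7%) and 12 held TTTGAA and also both (34.3%). They therefore describe the whole list and not the genes that rose. The 120 bases before the start are shown for the 4 genes of smallest adjusted p that hold both motifs in that stretch, as examples of promoters with both. Genes of a single chromosome were left out of this choice. Capitals mark the CCAAT box, which reads ATTGG where it lies on the other strand, and the homology core TTTGAA, which then reads TTCAAA. The motifs did not overlap here, and each stretch reads 5′ to 3′ on the strand of its gene.
Cdk1: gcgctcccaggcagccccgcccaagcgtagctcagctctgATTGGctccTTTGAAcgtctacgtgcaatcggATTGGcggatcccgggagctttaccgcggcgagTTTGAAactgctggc
Kif22: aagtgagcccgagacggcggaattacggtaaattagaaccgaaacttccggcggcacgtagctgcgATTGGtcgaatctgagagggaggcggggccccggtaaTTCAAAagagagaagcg
Top2a: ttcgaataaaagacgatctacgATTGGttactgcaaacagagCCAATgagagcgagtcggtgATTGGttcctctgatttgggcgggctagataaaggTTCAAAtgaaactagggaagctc
Cks1b: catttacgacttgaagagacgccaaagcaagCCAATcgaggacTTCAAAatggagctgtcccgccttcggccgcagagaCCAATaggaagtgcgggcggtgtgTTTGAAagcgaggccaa
A match gives the letters only and is no measure of binding. The positions in GRCm38.p6 were chr10:69352913-69353032 for Cdk1, chr7:127042421-127042540 for Kif22, chr11:99024190-99024309 for Top2a and chr3:89418292-89418411 for Cks1b, all on the minus strand.

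Genes of cell cycle arrest and p53 targets rose in 8 of 22 and fell in 0 (median 0.23, and 5 of 22 without Nx mouse 3). The p53 target Phlda3 stood at 7.91, 7.07, 6.53 and 6.34 in Nx and 5.12, 5.29, 5.50 and 5.82 in sham kidneys (1.53, SE 0.25, adjusted p = 1.7e-05). Cdkn1a, the inhibitor of cyclin-dependent kinases, stood at 7.40, 6.50, 6.09 and 6.51 in Nx and 5.68, 5.40, 5.49 and 5.50 in sham kidneys (1.11, SE 0.21, adjusted p = 0.000199). In both genes the groups lay apart, with Nx mouse 3 highest. Of 16 targets of Nrf2, the factor of the oxidant defence, 6 rose and 0 fell (3 without sham mouse 1, 3 or 5), among them the reductases Akr1b8 (2.03, SE 0.31, adjusted p = 7.98e-06), Cbr3 (2.01, SE 0.39, adjusted p = 0.00019) and Nqo1 (0.83, SE 0.21, adjusted p = 0.00394). Of 20 genes of the unfolded protein response 1 rose, the stress factor Atf3 (2.10, SE 0.48, adjusted p = 0.00145), and 1 to 3 passed when single arrays were left out, 3 of them without Nx mouse 5 or 9 and 2 without Nx mouse 4 or sham mouse 3.

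**Figure D2:**
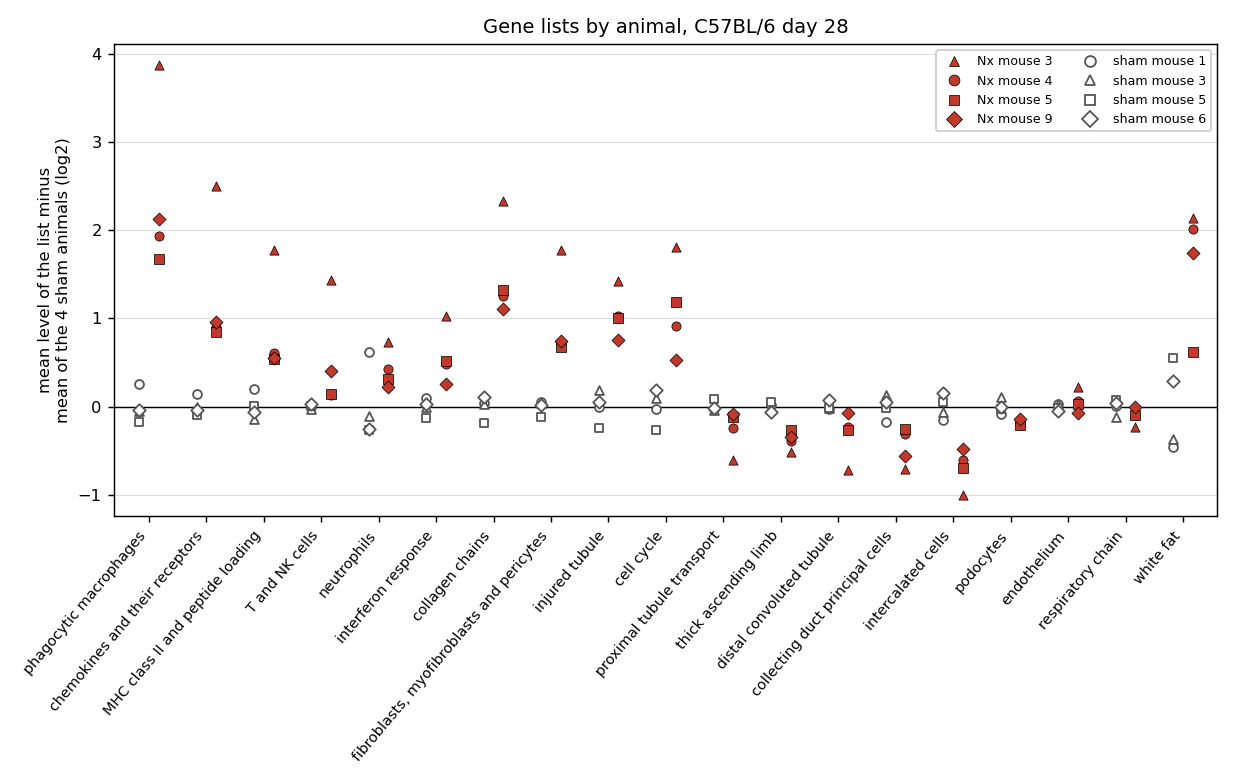
Mean log2 level of 19 gene lists in each animal, minus the mean of the 4 sham animals (the zero line), Nx filled and sham open. Macrophage, collagen and cell cycle genes lie above all sham animals in each Nx animal and farthest in Nx mouse 3, and the intercalated cell genes lie below all sham animals in each Nx animal.

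In the tubule, more genes fell than rose in each segment listed. Of these segments, intercalated cells, the acid and base secreting cells of the collecting duct, had the largest share: 13 of 18 measured genes fell and 0 rose (median -0.72), 10 of 18 fell without Nx mouse 3, and 8 of 18 with the 8 arrays alone. Slc4a9, an anion exchanger of the base-secreting type, stood at 5.10, 6.31, 6.17 and 6.81 in Nx and 7.55, 7.57, 7.67 and 7.53 in sham kidneys (-1.48, SE 0.27, adjusted p = 9.99e-05). Slc26a4 or pendrin, of the same cells, stood at 7.91, 8.91, 8.86 and 9.27 in Nx and 9.72, 10.00, 10.17 and 10.20 in sham kidneys (-1.29, SE 0.21, adjusted p = 1.37e-05). The ammonia channel Rhcg stood at 6.68, 7.25, 7.35 and 7.52 in Nx and 8.67, 8.23, 8.89 and 8.47 in sham kidneys (-1.37, SE 0.19, adjusted p = 1.84e-06). In each of the 3 the lowest sham animal lay above the highest Nx animal. The proton pump subunit Atp6v1b1 (-0.98, SE 0.15, adjusted p = 5.93e-06), the oxoglutarate receptor Oxgr1 (-1.12, SE 0.18, adjusted p = 1.4e-05) and the anion exchanger Slc4a1 (-0.94, SE 0.25, adjusted p = 0.00618), which red cells carry too, fell as well. Foxi1, the transcription factor that intercalated cells need, fell by 0.87 (adjusted p = 0.0103), with overlapping values and adjusted p = 0.102 without mouse 3.

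Principal cells, their neighbours, fell in 7 of 20 genes and rose in 0 (median -0.34, and 5 of 20 without Nx mouse 3). The basolateral water channel Aqp4, at 8.20, 9.44, 9.70 and 7.97 in Nx and 10.89, 11.69, 10.77 and 11.18 in sham kidneys, fell (-2.30, SE 0.65, adjusted p = 0.00958) and Aqp3 fell by 0.63 (adjusted p = 0.00285), while the apical channel Aqp2 did not pass (-0.34, SE 0.26, adjusted p = 0.401). The mineralocorticoid receptor Nr3c2 (-0.67, SE 0.15, adjusted p = 0.00153), the enzyme Hsd11b2 that shields it from glucocorticoids (-0.61, SE 0.11, adjusted p = 6.62e-05) and the sodium channel subunit Scnn1b (-0.59, SE 0.14, adjusted p = 0.00152) fell together without overlap.

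In the thick ascending limb 8 of 18 genes fell and 0 rose (median -0.34), 6 of 18 without Nx mouse 3. The potassium channel Kcnj1, which returns potassium for salt uptake, fell (-0.52, SE 0.11, adjusted p = 0.000398), and Umod did not pass (-0.07, SE 0.08, adjusted p = 0.592). In the distal convoluted tubule 9 of 18 fell and 0 rose (median -0.30), but 4 fell and 1 rose without that mouse, 5 passed without sham mouse 5, and 1 passed with the 8 arrays alone. The magnesium channel Trpm6, at 5.74, 6.77, 6.79 and 7.69 in Nx and 7.77, 7.88, 7.78 and 8.16 in sham kidneys, fell by 1.15 (adjusted p = 0.00452) and had adjusted p = 0.06 without mouse 3. The cotransporter Slc12a3, the target of thiazides, did not pass (-0.47, SE 0.20, adjusted p = 0.0903).

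Proximal tubule transport fell in 15 of 43 genes and rose in 4 (median -0.29), 6 fell and 4 rose without Nx mouse 3, and 3 fell and 2 rose with the 8 arrays alone. The water channel Aqp1 (-0.61, SE 0.12, adjusted p = 0.000408), the glucose carrier Slc5a2 (-0.80, SE 0.18, adjusted p = 0.00104), the cystine carrier subunit Slc3a1 (-0.43, SE 0.09, adjusted p = 0.000643) and the peptide carrier Slc15a2 (-0.73, SE 0.16, adjusted p = 0.000663) fell. The sulfate carrier Slc13a1 went the other way, at 13.16, 13.09, 13.18 and 13.01 in Nx and 12.21, 12.004, 12.44 and 12.63 in sham kidneys, with no overlap and a rise of 0.79, SE 0.13, adjusted p = 3.89e-05. The organic anion carrier Slc22a6 (0.63, SE 0.14, adjusted p = 0.00143) and the glucose carrier Slc5a1 of the late proximal tubule (0.39, SE 0.11, adjusted p = 0.0121) rose too. Slc5a1 had adjusted p = 0.0549 without Nx mouse 9 and 0.0612 without sham mouse 3.

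Proximal enzymes fell in 14 of 40 and rose in 2 (median -0.25, 8 and 2 without Nx mouse 3, and 7 and 1 with the 8 arrays alone). The kidney nuclease Dnase1 stood at 10.38, 11.79, 11.67 and 12.86 in Nx and 14.08, 14.31, 14.43 and 14.46 in sham kidneys and fell by 2.65 (SE 0.30, adjusted p = 4.63e-08). The methyl donor enzyme Bhmt, which turns betaine and homocysteine into methionine, stood at 5.95, 7.84, 7.63 and 9.40 in Nx and 10.37, 11.63, 11.00 and 9.71 in sham kidneys (-2.97, SE 0.55, adjusted p = 0.000129). Hpd of tyrosine breakdown stood at 6.38, 8.87, 8.55 and 10.02 in Nx and 10.92, 11.49, 11.91 and 10.65 in sham kidneys (-2.79, SE 0.52, adjusted p = 0.000128). Hdc, which makes histamine, stood at 2.68, 2.68, 4.13 and 4.15 in Nx and 7.01, 6.55, 7.25 and 6.21 in sham kidneys (-3.35, SE 0.64, adjusted p = 0.000168). In Bhmt and Hpd Nx mouse 9 came close to the lowest sham animal and Nx mouse 3 lay lowest by far, while in Dnase1 and Hdc all Nx animals lay well below. Acsm3, a medium-chain acyl-CoA synthetase, was 1 of the 2 that rose, by 2.37, SE 0.46, adjusted p = 0.000245. The other was Pck1, which is also in the white fat list. Of 30 genes of cytochrome P450 and drug metabolism 4 rose and 5 fell, beside 9.85% higher and 9.14% lower over all genes. Higher were Ugt2b37 (2.46, SE 0.37, adjusted p = 4.86e-06) and the oxysterol hydroxylase Cyp7b1 (1.82, SE 0.33, adjusted p = 8.58e-05). Lower were Cyp2d12 (-2.41, SE 0.49, adjusted p = 0.000389) and the retinoic acid hydroxylase Cyp26b1 (-2.59, SE 0.62, adjusted p = 0.00219).

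Among the other largest falls, all chosen from genes whose groups did not overlap, were further transporters. The bile acid and drug exporter Abcc3 (-2.28, SE 0.32, adjusted p = 1.54e-06), the phosphate carrier relative Slc17a2 (-2.15, SE 0.49, adjusted p = 0.00128), and the amino acid carrier Slc6a15 (-2.11, SE 0.29, adjusted p = 1.09e-06) fell. So did the lysolipid carrier Mfsd2a (-2.06, SE 0.45, adjusted p = 0.000783) and the biotin carrier Slc5a6 (-1.91, SE 0.26, adjusted p = 1.54e-06). The organic anion carrier Slc22a27 (-1.82, SE 0.38, adjusted p = 0.000464) and the peroxisomal acyltransferase Acnat2 (-1.86, SE 0.35, adjusted p = 0.000159) did too. The same held for the complement subunit C8a (-2.44, SE 0.48, adjusted p = 0.000248), Corin, the protease that activates natriuretic peptide (-2.04, SE 0.37, adjusted p = 9.64e-05). Nap1l5 (-1.76, SE 0.30, adjusted p = 3.15e-05) and Nepn (-1.80, SE 0.33, adjusted p = 0.000102) fell as well. Copine Cpne4 was under the filter value in all Nx animals and at 3.56 to 5.38 in sham animals, at least 5.18-fold lower (adjusted p = 6.38e-08).

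**Figure D3:**
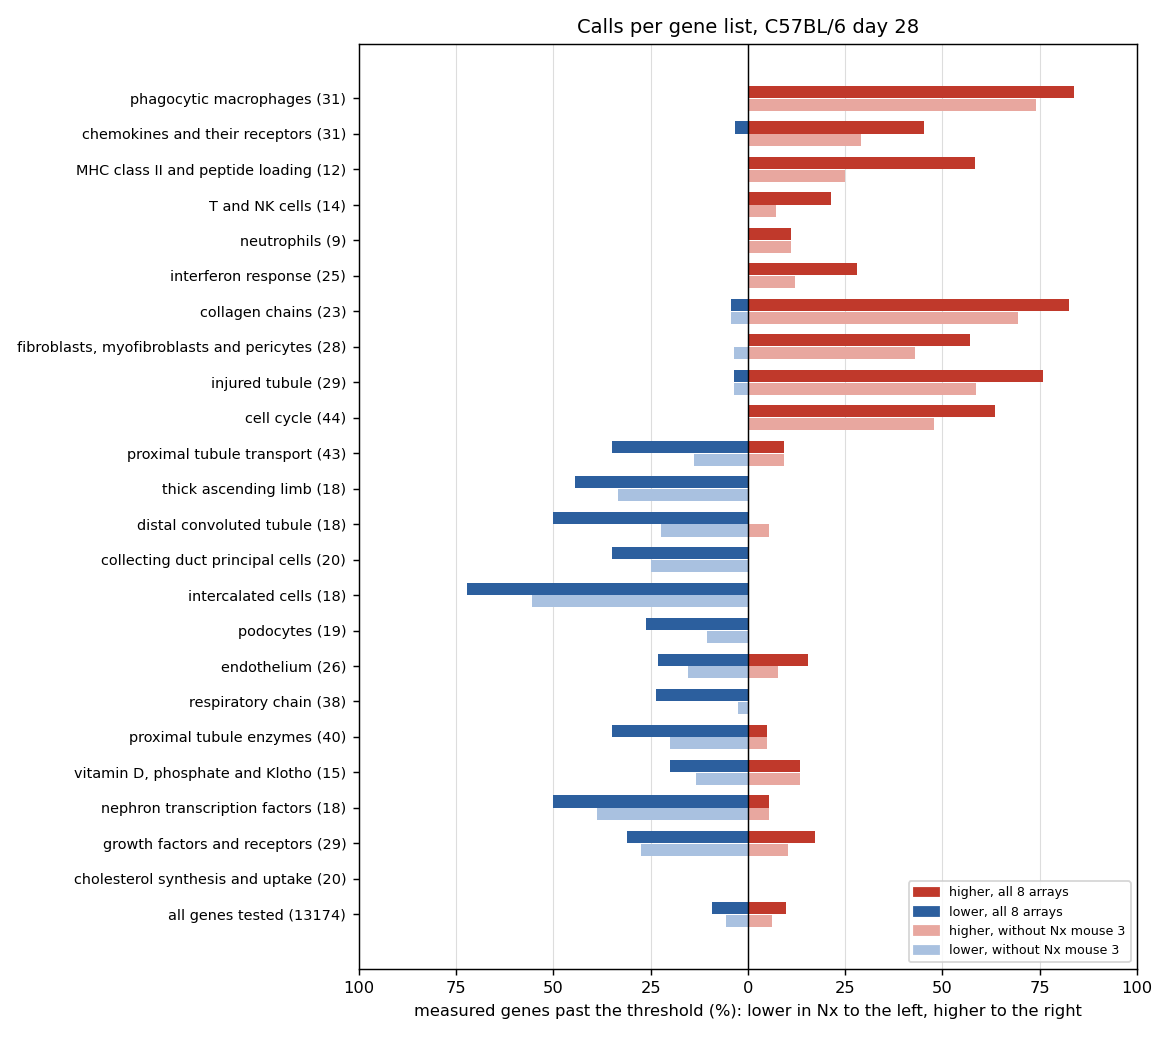
Share of the measured genes of each list past the threshold (number measured in brackets), higher in Nx to the right and lower to the left, with all 8 arrays (dark) and without Nx mouse 3 (pale). Over all genes the shares are 9.85% higher and 9.14% lower; phagocytic macrophages, collagens and injured tubule lie far to the right, intercalated cells far to the left, and cholesterol synthesis has no bar.

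Both enzymes that set the level of active vitamin D were higher in the remnant. Cyp27b1, which makes the active hormone in the proximal tubule, stood at 8.09, 8.10, 8.53 and 7.51 in Nx and 5.29, 4.50, 5.83 and 6.54 in sham kidneys. Cyp24a1, which breaks it down, stood at 12.06, 10.67, 11.59 and 9.56 in Nx and 6.95, 8.90, 9.72 and 7.40 in sham kidneys. For Cyp27b1 the groups lay apart, and Nx mouse 3 lay among the other Nx animals, while for Cyp24a1 sham mouse 5 lay above Nx mouse 9. The differences were 2.52, SE 0.60, adjusted p = 0.00215 and 2.73, SE 0.70, adjusted p = 0.00432. Without Nx mouse 3 they were 2.51, adjusted p = 0.00846 and 2.37, adjusted p = 0.0318. The phosphate carrier Slc34a3 stood at 7.61, 8.37, 8.44 and 8.57 in Nx and 9.41, 9.75, 9.58 and 10.01 in sham kidneys (-1.44, SE 0.37, adjusted p = 0.00451). Klotho, Kl, the co-receptor for the phosphate hormone FGF23, fell by 0.57 (adjusted p = 0.0114), with overlapping values and adjusted p = 0.0986 without Nx mouse 3. The main phosphate carrier Slc34a1 did not pass (-0.29, SE 0.16, adjusted p = 0.22), nor did the vitamin D receptor Vdr (-0.34, SE 0.14, adjusted p = 0.087). In all, 2 of 15 genes of this list rose and 3 fell, the third of them Napsa (-0.39, SE 0.09, adjusted p = 0.00148).

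Growth factors and their receptors moved in both directions, 5 of 29 higher and 9 lower (3 and 8 without Nx mouse 3). The 2 insulin-like growth factors parted. Igf1 stood at 9.98, 8.67, 8.59 and 8.39 in Nx and 7.40, 7.53, 6.92 and 7.46 in sham kidneys and rose by 1.58, SE 0.28, adjusted p = 6.17e-05. Igf2 stood at 3.74, 3.74, 6.26 and 5.53 in Nx and 9.67, 9.70, 9.78 and 5.78 in sham kidneys and fell by 3.91 (SE 0.78, adjusted p = 0.000308), although sham mouse 6 lay among the Nx animals. Their receptor Igf1r fell by 0.54 (adjusted p = 8.79e-05). Fgf1 (-1.09, SE 0.23, adjusted p = 0.000504) and Bmp6 (-0.91, SE 0.17, adjusted p = 9.92e-05) fell, and so did Egf, a product of the distal nephron (-0.55, SE 0.17, adjusted p = 0.0175), whose adjusted p was 0.14 without Nx mouse 3 and 0.0744 without sham mouse 5. Gas6, the ligand of the receptor Axl, was even between animals at 12.25, 12.17, 12.28 and 12.23 in Nx and 11.84, 11.69, 11.61 and 11.53 in sham kidneys (0.57, SE 0.08, adjusted p = 6.92e-07), and Axl rose by 0.78, SE 0.21, adjusted p = 0.00675 but did not pass without Nx mouse 3 (adjusted p = 0.1).

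Of 18 transcription factors of the nephron 9 fell and 1 rose (median -0.39, and 7 and 1 without Nx mouse 3). Pou3f3 and Lhx1, of the distal nephron, fell by 0.61 and 0.75 (adjusted p = 9.58e-05 and 0.000416). Esrrb and Esrrg, 2 of the estrogen-related receptors, which drive genes of mitochondria, fell as well. A further member, Esrra, was measured and was not among the 5 genes of smallest p. Esrrb stood at 5.12, 6.10, 5.73 and 6.04 in Nx and 6.82, 6.84, 6.83 and 7.42 in sham kidneys (-1.23, SE 0.26, adjusted p = 0.000705), and Esrrg fell by less (-0.41, SE 0.11, adjusted p = 0.00589). Their coactivator Ppargc1a fell by 0.69 (adjusted p = 0.000251) with no overlap. The 1 that rose was Wnt4, a signal of nephron formation, at 5.91, 5.61, 6.22 and 4.78 in Nx and 3.59, 4.62, 3.57 and 4.30 in sham kidneys (1.61, SE 0.44, adjusted p = 0.00817).

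Genes of mitochondrial metabolism differed little in size. In the respiratory chain 9 of 38 fell and 0 rose (median -0.11), and 1 of 38 without Nx mouse 3. With the 8 arrays alone limma called 0 of 38, with 6 at an unadjusted p under 0.05. Leaving out 1 other array gave 3 or 4 (Nx mouse 4, sham mouse 1, 5 or 6) or 15 or 16 (sham mouse 3, Nx mouse 9). Atp5b of the ATP synthase, at 14.25, 14.52, 14.49 and 14.46 in Nx and 14.58, 14.56, 14.63 and 14.61 in sham kidneys, had a difference of -0.17, SE 0.05, adjusted p = 0.00818 and adjusted p = 0.106 without that mouse. Fatty acid oxidation and peroxisomes fell in 6 of 27 and rose in 0 (median -0.13, and 3 of 27 without the mouse), with Etfa (-0.29, SE 0.05, adjusted p = 0.000114) and Acadm (-0.48, SE 0.11, adjusted p = 0.000865). Of 18 genes of glycolysis and hypoxia 4 rose and 3 fell (4 in all without Nx mouse 3 or 4 and 3 without sham mouse 5), among the risers the hexokinase Hk2 (1.85, SE 0.49, adjusted p = 0.00641, 0.0562 without Nx mouse 3) and the oxygen sensor Egln3 (1.14, SE 0.24, adjusted p = 0.000699). None of 20 cholesterol genes passed the limma test (0 higher, 0 lower, and 3 at an unadjusted p under 0.05).

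Podocytes, the filter cells of the glomerulus, fell in 5 of 19 genes and rose in 0 (median -0.22), and 2 of 19 without Nx mouse 3, Nx mouse 4, sham mouse 5 or sham mouse 6 and 3 without Nx mouse 5. Podxl, their surface sialomucin, stood at 9.93, 10.41, 10.34 and 10.55 in Nx and 10.77, 10.79, 10.93 and 10.73 in sham kidneys (-0.50, SE 0.14, adjusted p = 0.00675), with no overlap but adjusted p = 0.0692 without Nx mouse 3. Endothelial genes rose in 4 of 26 and fell in 6 (2 and 4 without Nx mouse 3). The shares over all genes were 9.85% higher and 9.14% lower, and both counts over all genes were also smaller without Nx mouse 3. Those that fell included Ehd3 of glomerular endothelium (-0.66, SE 0.11, adjusted p = 2.03e-05), the receptor Flt1 (-0.54, SE 0.13, adjusted p = 0.00156) and its ligand Vegfa (-0.46, SE 0.12, adjusted p = 0.00607), which the tubule and podocytes make. Gpihbp1, which holds lipoprotein lipase on capillaries (1.02, SE 0.22, adjusted p = 0.000598), and the lymphatic and macrophage receptor Lyve1 (2.50, SE 0.59, adjusted p = 0.00198) rose. Of 8 genes of the renin angiotensin system 1 rose and 3 fell (0 and 2 without Nx mouse 3), among them the receptor Agtr1a (-0.50, SE 0.13, adjusted p = 0.00382) and the converting enzyme Ace (-0.82, SE 0.22, adjusted p = 0.00675), which had adjusted p = 0.0838 without Nx mouse 3.

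Genes of the acute phase and coagulation rose in 10 of 22 and fell in 0 (median 1.04, and 7 of 22 without Nx mouse 3). The fibrinogen chain Fgg stood at 10.95, 9.80, 9.80 and 9.70 in Nx and 7.73, 7.68, 6.81 and 8.36 in sham kidneys (2.42, SE 0.43, adjusted p = 7.15e-05). Tissue factor F3 rose by 1.31, SE 0.23, adjusted p = 5.19e-05, and the lipopolysaccharide-binding protein Lbp by 1.60, SE 0.32, adjusted p = 0.000319. Haptoglobin Hp rose by 4.18, SE 1.07, adjusted p = 0.00423. Of 8 liver genes only Serpina1b rose (2.75, SE 0.53, adjusted p = 0.000221), and albumin Alb, their defining gene, did not pass (-0.41, SE 0.85, adjusted p = 0.826). With the spread of the 8 arrays alone 2 of the 8 liver genes rose.

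Fat markers varied with the animal. Of 11 genes of white fat 5 rose and 0 fell, with list means of 8.13 to 9.65 in Nx and 7.05 to 8.06 in sham kidneys, and 4 of 11 rose without Nx mouse 3 and 3 without sham mouse 1. The 5 were Fabp4, Retn, Adipoq, Cidec and Pck1, of which Pck1 is also a kidney gene, counted above among the proximal enzymes. The fat hormone Adipoq stood at 10.96, 10.62, 8.01 and 10.70 in Nx and 3.11, 4.83, 8.01 and 7.24 in sham kidneys (4.28, SE 1.21, adjusted p = 0.00996), so that Nx mouse 5 met sham mouse 5, and did not pass without sham mouse 1 (adjusted p = 0.06). Of 7 brown fat genes 0 rose and 2 fell, which were Fabp3 and Ppargc1a, both also kidney genes. The defining gene Ucp1 had overlapping levels (2.49, SE 1.49, adjusted p = 0.264). The muscle myosin Myh1, at 2.34, 2.20, 2.85 and 3.83 in Nx and 6.61, 7.05, 7.05 and 4.48 in sham kidneys, fell by 3.49 (adjusted p = 0.0278, and 0.0578 to 0.0794 without Nx mouse 3 or 4 or sham mouse 1, 3 or 5). The muscle genes Myh4 (-0.24, SE 0.57, adjusted p = 0.857) and Mylpf (-0.19, SE 0.59, adjusted p = 0.905) did not pass. The urothelial plaque proteins Upk1b (2.45, SE 0.61, adjusted p = 0.00345) and Upk3b (1.81, SE 0.52, adjusted p = 0.0116) were 2 of 7 genes of mesothelium and urothelium that rose, and Upk3b had adjusted p = 0.0516 without Nx mouse 4. Of 19 pancreas genes 0 passed the limma test with all animals (17 at an unadjusted p under 0.05) and 16 rose without Nx mouse 3. What the fat, muscle, urothelial and pancreas transcripts contribute to the other results was not tested beyond the fit with the pancreas covariate. In that fit 28 of 31 phagocytic macrophage genes, 19 of 23 collagen chains and 30 of 44 cell cycle genes rose, and 13 of 18 intercalated cell genes fell. The count was lower by more than 1.5 times for 2 lists, the respiratory chain (3 fell) and the Nrf2 targets (3 rose), and among podocyte genes 3 fell and 1 rose.

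Against day 2 in the same strain, the effect of surgery was smaller at day 28 in some gene groups and larger in others. The difference of the Nx effect, day 28 minus day 2, passed for 1167 of 13174 genes (8.86%), 638 with a higher (4.84%) and 529 with a lower effect at day 28 (4.02%). For cell division the effect was lower at day 28 for 26 of 44 cell cycle genes and higher for 1, Ccnd1 (adjusted p = 0.0501 to 0.11 without Nx mouse 5 or 9 or sham mouse 3 or 5). Kif22 was 2.78 above sham at day 2 and 1.21 at day 28 (difference -1.58, SE 0.23, adjusted p = 1.38e-05), and Aurka, a kinase of the mitotic spindle, 4.09 and 0.60 (adjusted p = 9.71e-11). At day 28 all sham animals lay under the filter value for Aurka, and the Nx mean was 1.44-fold that value (1.17-fold without Nx mouse 3). The day 28 rise of Aurka did not pass without Nx mouse 3 or 5 or any 1 of the sham animals (limma adjusted p = 0.0707 to 0.384). For Mki67 the effects were 3.60 and 3.41 and the change did not pass (adjusted p = 0.932). Among injured tubule genes the effect was lower at day 28 for 12 of 29 and higher for 0. Krt20, a keratin of the injured tubule, was 4.98 above sham at day 2 and 0.68 at day 28 (difference -4.29, SE 0.30, adjusted p = 2.98e-13), while Havcr1 was 3.59 and 3.78 (adjusted p = 0.954). The day 28 effect of Krt20 passed, but not without Nx mouse 4 (limma adjusted p = 0.0855).

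Neutrophil genes had lower effects at day 28 than at day 2. Cxcl5, a neutrophil attractant, was 5.69 above sham at day 2 and 0.36 at day 28, and 3 of the 4 Nx animals of day 28 lay under the filter value of 2.277 (difference -5.33, SE 0.42, adjusted p = 8.85e-12). S100a9 (4.12 and -0.60, adjusted p = 0.0264), Mmp9 (3.85 and 0.23, adjusted p = 1.54e-05) and Il1b (1.82 and -0.24, adjusted p = 0.0164) changed likewise, and with Lcn2 these were 4 of 9 neutrophil genes. Without sham mouse 1 the change of S100a9 had adjusted p = 0.0796 and that of Il1b 0.0578. The matrix enzyme Mmp7 was 5.54 and 1.20 (adjusted p = 4.21e-07). Its day 28 effect passed, but not without Nx mouse 3 or 4 (limma adjusted p = 0.196 and 0.0705). Of 31 phagocytic macrophage genes 1, Fcgr1, had a lower effect at day 28 (adjusted p = 0.0516 to 0.0608 without Nx mouse 4 or 9 or sham mouse 1) and 0 a higher one. In the other direction, Ccl8 (2.81 and 5.91, adjusted p = 0.0339), Retnla (0.70 and 5.06, adjusted p = 0.0314) and Cilp (1.95 and 5.52, adjusted p = 0.00901) had higher effects at day 28. Ccl8 had an adjusted p of 0.0519 to 0.0882 without Nx mouse 3 or 9 or sham mouse 1, 3 or 5, and Retnla of 0.0505 to 0.081 without Nx mouse 3 or sham mouse 1 or 3.

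For proximal tubule genes the fall was smaller at day 28 than at day 2. The effect was higher at day 28 for 23 of 43 transport genes and lower for 0, and higher for 13 and lower for 1 of 40 enzymes, the last being Dnase1 (-0.82 at day 2 and -2.65 at day 28, adjusted p = 0.00403). Slc34a1 was -1.71 at day 2 and -0.29 at day 28 (adjusted p = 3.93e-05), the creatine pathway enzyme Gatm -1.92 and -0.21 (adjusted p = 0.000106). Cyp27b1 changed sides, from -2.58 to 2.52 (adjusted p = 6.49e-05), and so did Gas6, from -0.21 to 0.57 (adjusted p = 3.97e-06). In the distal segments, of 18 genes each of thick ascending limb, distal convoluted tubule and intercalated cells, 0, 2 and 0 had a higher effect at day 28, and 0, 0 and 1 a lower one. These contrasts use the same day 28 animals as the results above and are not independent of them.

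Between day 28 and day 53 no gene passed (0 of 13174, 0.0%, limma), with 405 at an unadjusted p under 0.05. The count was 987 without the arrays that carry pancreas transcripts, where the Nx group of day 28 is mouse 3 alone and is assumed to vary like the other groups. The effect at day 28 and at day 53 was 3.96 and 3.34 for Col1a1, -1.37 and -1.27 for Rhcg and 2.52 and 3.47 for Cyp27b1. The median change from day 28 to day 53 was -0.51 over the cell cycle genes, -0.44 over phagocytic macrophages, -0.38 over matrix proteases and -0.31 over collagens, and 0.00 over all genes. A p that misses the threshold does not show that effects were equal. The fit without the pancreas arrays also left out such arrays of other days and of FVB, so more than the day 28 groups changed. Against FVB kidneys of the same day, 17 genes had a different effect (0.129%), 9 higher (0.0683%) and 8 lower (0.0607%) in C57BL/6. That count was 1003 without the arrays that carry pancreas transcripts, again with Nx mouse 3 alone.

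In 3 of those 17 genes the C57BL/6 animals lay near the bottom of the scale. Serpina6, the corticosteroid carrier, was at 2.20 to 2.23 in all 8 C57BL/6 animals and -4.48 in FVB (difference 4.47, SE 0.52, adjusted p = 1.76e-06). The interferon-inducible Ifi202b was at the lowest value in all 8 and rose by 2.73 in FVB (adjusted p = 0.0172), and Il5ra, an eosinophil receptor, lay between 2.87 and 3.11 and was -2.44 in FVB (adjusted p = 1.2e-05). Others moved in C57BL/6. Serpina1b rose there and was -1.29 in FVB (adjusted p = 0.00687). The protocadherin Pcdhb9 rose by 2.99 against 0.29 (adjusted p = 0.00177), and Cpne4 fell by 2.43 against -0.10 in FVB (adjusted p = 0.00187). Col5a2, a minor fibrillar collagen chain, had an effect of 1.43 in C57BL/6 (1.03, adjusted p = 0.056 without Nx mouse 3) and 3.89 in FVB (adjusted p of the difference = 0.0236), and was the 1 collagen chain of 23 to differ, with an adjusted p of 0.0512 to 0.0876 without Nx mouse 4, 5 or 9 or sham mouse 5 or 6. Mcm6, a subunit of the replication helicase, had an effect of 0.25 and 2.81 (adjusted p = 0.00142), the 1 cell cycle gene of 44. Probe sets may bind the 2 strains' transcripts unequally, which was not tested. None of 31 phagocytic macrophage genes, 29 injured tubule genes or 18 intercalated cell genes passed this limma test (0 in each, with 1, 1 and 7 at an unadjusted p under 0.05). Over all 13174 genes 594 had an unadjusted p under 0.05. The median difference of these 3 lists, C57BL/6 minus FVB, was 0.18, 0.17 and -0.35, against 0.01 over all genes. The fall of the intercalated cell genes was thus not shown to be alike in the strains.

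**Figure D4:**
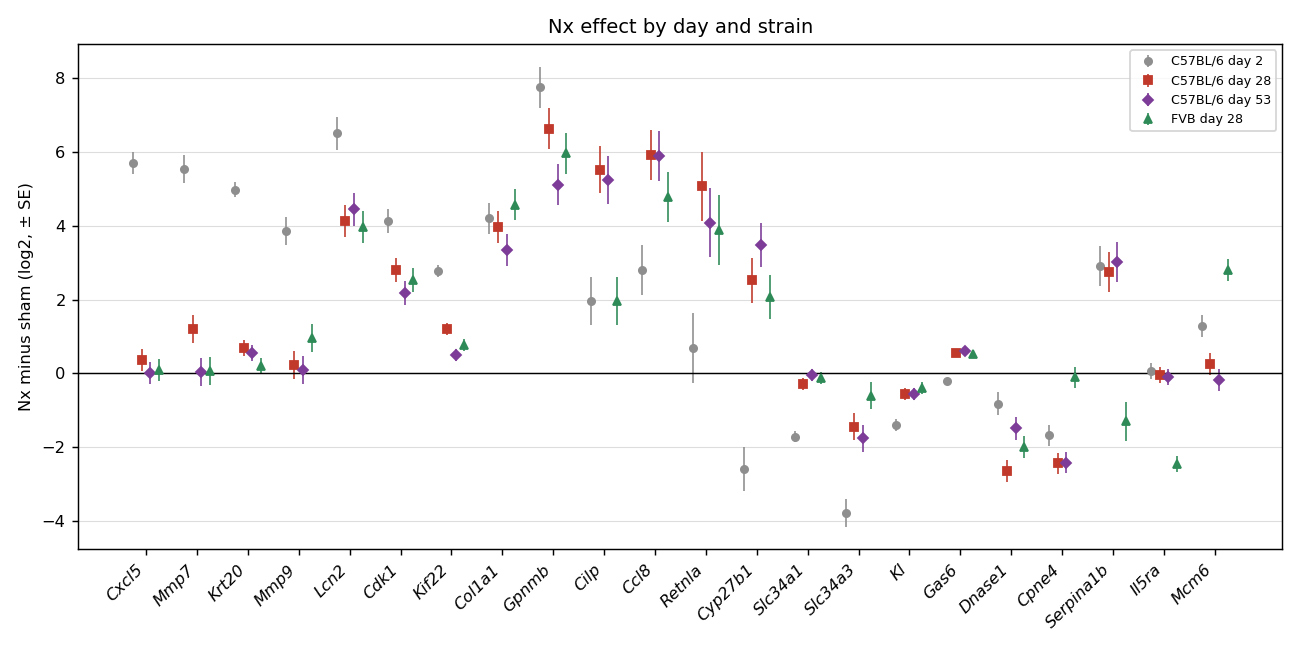
Nx minus sham (log2, points, with bars of 1 SE) for 22 genes in C57BL/6 kidneys at days 2, 28 and 53 and in FVB kidneys at day 28. Cxcl5, Mmp7 and Krt20 stand highest at day 2 among the C57BL/6 days, Cyp27b1 is at -2.58 at day 2 and 2.52 at day 28, and Serpina1b, Il5ra and Mcm6 differ between the strains at day 28.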

How the data were processed

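The authors deposited log2 values per probe set of an Affymetrix mouse array, 1 array per animal, from RNA of frozen whole kidney per the labels' protocols. The submitters' processing notes name MAS5, with no role given, and background correction and normalization are not given in the sources used here. Of 45101 probe sets, 24197 were kept that GEO's annotation pairs with 1 gene symbol and whose value passed 2.277 (the 40th percentile over the whole table) on 4 or more arrays, and each of 13174 genes was represented by its probe set of highest mean. Of all values 32.1% lay at the lowest value.

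limma 3.58.1 in R 4.3.3 was fitted to all 48 arrays with 1 mean per group (36 residual degrees of freedom, eBayes with trend), two-sided, with Benjamini-Hochberg adjustment over all genes and a threshold of 0.05. The differences between days and strains are contrasts of the same fit. Tables were made with Python 3.11.15 and pandas 2.3.3. Tested on simulated data of the C57BL/6 day 28 comparison, the fit recovered 50% of genes changed by 0.5 on the log2 scale, 90% by 1, 98% by 2 and 100% by 4. Recovery with an animal apart from its group, pancreas transcripts, values at the lowest level or unequal spread between groups was not tested.

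The 47 gene lists (928 genes measured) and the members were chosen with earlier results of these data known. Named were the 20 highest and 20 lowest changes among called genes without overlap, up to 5 genes of smallest p per list, and the 4 highest and 4 lowest called genes of each difference. Where all arrays of a group lay under the filter value, a fold was set against that value as a lower bound. Alternatives covered normalization, filter, probe set choice, arrays fitted, weights, single arrays, a replicate block and the pancreas transcripts. Animals with a mouse number shared by the groups (3 and 5) were not treated as pairs. Their deviations correlated at 0.168 and -0.057, and those of unlike numbers at -0.307 to 0.317. So few values cannot decide whether the animals were paired.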

Additional observations from a re-analysis of the deposited data

Results flagged for a closer look

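Within each group of 4 animals the highest and lowest values of the 47 list means and of the 40 genes with the largest changes were set against the rest. In 30 of 174 groups 1 animal lay beyond Dixon's critical value, which a single group passes by chance in about 1 of 20 cases. The 174 are not independent, since they come from the same 8 animals, lists share genes and the genes were picked for their changes. Their count can therefore not be set against that rate. Nx mouse 3 was that animal most often. Its list mean was highest for alternatively activated and resident macrophages (7.59, the other Nx animals 4.48 to 5.01), chemokines (7.04, others 5.39 to 5.50), complement (8.66, others 7.74 to 7.86), MHC class II (7.13, others 5.89 to 5.96) and mast cells and eosinophils (4.34, others 3.58 to 3.64). The same held for inflammatory cytokines (7.43, others 6.54 to 6.61), elastic fibres (7.86, others 6.69 to 6.74), matricellular proteins (9.18, others 7.94 to 7.97) and matrix proteases (7.78, others 6.16 to 6.32). It held too for fibroblasts (9.05, others 7.95 to 8.02) and glycolysis (9.74, others 9.37 to 9.43). Nx mouse 3 was lowest for cytochrome P450 (9.14, others 9.45 to 9.48) and the pancreas genes (2.98, others 11.70 to 11.97). Among single genes it was apart for Retnla (12.19, others 6.02 to 6.83), Timp1 (9.64, others 5.47 to 5.98), Col1a1 (11.12, others 8.82 to 9.20) and Cyp26b1 (3.08, others 3.41).

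Other animals were apart less often. Nx mouse 9 was highest for Nrf2 targets (10.01, others 9.83 to 9.84) and Nx mouse 5 lowest for Adipoq (8.01, others 10.62 to 10.96). Sham mouse 1 was highest for the pancreas genes (6.74, others 2.99 to 3.01) and Gpnmb (3.30, others 2.95 to 2.98). Sham mouse 5 was lowest for elastic fibres (5.70, others 5.94 to 5.96) and highest for proximal tubule enzymes (11.84, others 11.65 to 11.68). Sham mouse 6 was highest for distal convoluted tubule (10.36, others 10.26 to 10.27), liver (6.86, others 6.37 to 6.40), Ccl8 (3.45, others 2.57 to 2.67), Retnla (3.31, others 2.60 to 2.70), Ltbp2 (3.59, others 2.40 to 2.53) and Mfap5 (3.66, others 3.20), and lowest for C8a (9.10, others 9.86 to 10.00).

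The effect of surgery differed between day 2 and day 28 in C57BL/6 kidneys for 1167 genes. The largest increases of the effect were in fat genes, Ucp1 (7.67), Adipoq (5.77), Cox8b (5.73) and Thrsp (5.59), and the largest decreases in Cxcl5 (-5.33), S100a9 (-4.72), Mmp7 (-4.34) and Krt20 (-4.29). Adipoq had an adjusted p of 0.0503 to 0.0813 and Thrsp of 0.0533 to 0.0899 without Nx mouse 4 or 9 or sham mouse 1 or 3, Cox8b of 0.0638 without sham mouse 3 and S100a9 of 0.0796 without sham mouse 1 (limma). Between the strains at day 28 it differed for 17 genes. The largest differences, C57BL/6 minus FVB, were those of Serpina6 (4.47), Serpina1b (4.04), Pcdhb9 (2.70) and Il5ra (2.41), and on the other side Ifi202b (-2.72), Mcm6 (-2.56), Col5a2 (-2.46) and Cpne4 (-2.33).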

How the results depend on the processing

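The count of 2501 genes was 839 when the spread came from the 8 arrays alone and 4359 after a shift to 1 common median. Leaving out single arrays gave 1537 to 2615, the lowest without Nx mouse 3 (1450 genes shared with the 2501). Mouse number as a replicate block gave 2803 and changed the call of 1 named gene, Siglecf, which then passed. The change from day 2 to day 28 (1167 genes) was 2521 with array weights and 896 to 1663 without single arrays. From day 28 to day 53 the count of 0 was 1 with no filter, 0 to 1 without single arrays and 987 without the arrays that hold pancreas transcripts. The difference between strains (17 genes) was 30 with array weights, 3 with its own arrays alone, 1003 without the pancreas arrays and 13 to 24 without single arrays. The direction turned for 3 named genes, none of which had passed: S100a9 (0.292 without the pancreas arrays, -0.838 to 0.097 without single arrays, turned by sham mouse 1), Il1b (0.057 with the pancreas covariate, 0.753 without the pancreas arrays, -0.457 to 0.098, turned by sham mouse 1) and Il5ra (-0.091 to 0.021, turned by sham mouse 6). The median of 3 of 47 lists (B and plasma cells, glycolysis, red blood cells) changed sign with the scaling. Of 206 named genes 59 missed the threshold with the 8 arrays alone. With the pancreas covariate Ccl25 and Ecm1 did, and without the pancreas arrays Adipoq, Cyp26b1, Corin, Kit, Agtr1a, Upk1b, Upk3b, Ecm1, Slc22a6, Slc5a1 and Krt20 did. The causes were not tested. Values near 2.198, the lowest deposited, give no order, and 4 arrays a group limit the precision.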

Other observations

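Small marker lists of other tissues held few genes that passed. Of 4 adrenal cortex genes Scarb1, the receptor for high-density lipoprotein, rose (1.28, SE 0.25, adjusted p = 0.000199) and Fdx1, the ferredoxin of steroid synthesis, fell (-0.34, SE 0.09, adjusted p = 0.00887, and 0.0996 without Nx mouse 3), and both are made in many tissues. Star, which brings cholesterol into steroid-making mitochondria and defines that list, did not pass (0.78, SE 0.99, adjusted p = 0.667). Of 4 mast cell and eosinophil genes the receptor Kit fell (-0.40, SE 0.13, adjusted p = 0.019, and 0.0502 to 0.0846 without Nx mouse 5 or sham mouse 3 or 6), and Siglecf, a surface protein of eosinophils, did not pass (0.85, SE 0.32, adjusted p = 0.0575), although it did without Nx mouse 4, 5 or 9. In Siglecf all sham animals lay under the filter value. The Nx mean was 1.7-fold that value with all Nx animals and 0.982-fold without Nx mouse 3, so the difference rested on that mouse. In the liver list Ttr, the carrier of thyroid hormone and retinol-binding protein, had no overlap between the groups, at 15.26, 15.57, 15.38 and 15.39 in Nx and 13.58, 13.68, 13.83 and 14.39 in sham kidneys, and did not pass (1.53, SE 0.98, adjusted p = 0.303).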
